A study of Mus musculus with 9 samples.

Results

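The Polycomb group is represented here by 10 subunit genes. They were chosen by name from the known composition of the complexes, with earlier results of these data known. Ezh2, Ezh1, Eed, Suz12 and Jarid2 encode subunits of Polycomb repressive complex 2 (PRC2), and Rnf2, Ring1, Bmi1, Phc1 and Cbx7 encode subunits of Polycomb repressive complex 1 (PRC1). All probe sets whose only gene symbol was one of these 10 were taken, which gave 28 probe sets, 16 for PRC2 and 12 for PRC1, of 34945 probe sets with a single symbol and 18193 genes in all. In 22 of the 28 probe sets at least 3 of the 9 arrays reached the array's own median signal, and every one of the 10 genes kept at least 1 such probe set. Of a gene's probe sets, the brightest by mean log2 signal is called its leading probe set.

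RNA was measured on Affymetrix mouse arrays from normal thymus, from tumors of the thymus and from such tumors called resistant to XIST, with 3 arrays in each group. XIST is the noncoding RNA by which mammals inactivate an X chromosome. The labels give neither genotype, strain, sex, age nor inducing agent for any group. Nothing in them ties an array to an animal of its own, so the p-values describe only the spread among these 9 arrays, part of which may be technical. The design sets each kind of tumor against normal thymus, and resistant against other tumors.

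PRC2 places methyl groups on a lysine of histone H3, the mark H3K27me3, and PRC1 places ubiquitin on a lysine of histone H2A. Both marks go with the silencing of developmental genes, and both are laid down on the X chromosome that Xist coats. In the T cell lineage Polycomb complexes are known for their part in thymocyte proliferation and survival, and PRC2 subunits are recurrently mutated in early T cell leukaemia.

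Promoter windows were read for all 10 genes from the RefSeq promoter table of GRCm38.p6. Each was 300 bases long, from 250 before to 50 after a start site. Jarid2 had 2 windows, which gave 11 in all. The windows of Ezh2 and Phc1 are shown because Ezh2 is the catalytic subunit of PRC2 and the only member whose window held the motif searched, and because Phc1 had the largest change of the 10 genes. Both lie on the minus strand of chromosome 6, at chr6:47594981-47595280 and chr6:122340178-122340477, and are written 5′ to 3′ on the gene's strand, with the motif in capitals:
Ezh2: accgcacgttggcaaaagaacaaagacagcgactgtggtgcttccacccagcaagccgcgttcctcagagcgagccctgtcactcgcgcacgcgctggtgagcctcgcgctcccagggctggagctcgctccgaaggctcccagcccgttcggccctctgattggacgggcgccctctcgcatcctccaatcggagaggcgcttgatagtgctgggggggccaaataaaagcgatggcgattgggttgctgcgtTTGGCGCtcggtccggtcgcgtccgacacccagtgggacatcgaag
Phc1: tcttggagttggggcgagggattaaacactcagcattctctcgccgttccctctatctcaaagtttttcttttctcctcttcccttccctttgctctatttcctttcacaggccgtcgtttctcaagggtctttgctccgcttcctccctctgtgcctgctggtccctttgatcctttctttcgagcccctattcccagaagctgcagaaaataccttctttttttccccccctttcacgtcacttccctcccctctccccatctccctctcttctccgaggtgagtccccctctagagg

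The motifs searched were TTGGCGC and TTCGCGC, forms of the site of the E2F cell-cycle factors, on both strands. The Ezh2 window held TTGGCGC once, with its first base 4 bases after the start site of that window. This start site lies inside the Ezh2 gene, whose 5′ end is at chr6:47595270. The Cbx7 window also lies inside its gene, whose 5′ end is at chr15:79971143. The windows of the other 9 genes held neither motif, which says only that these letters are not in these windows. Of all 32851 promoter windows in the table, 3.89% held at least 1 of the motifs, and of all 27025 genes 4.47% did. The Phc1 window had a GC content of 52% and 9 CpG dinucleotides, the fewest of the 11 windows. The Ezh2 window had a GC content of 64.3% and 31 CpG dinucleotides.

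The 9 arrays fell into sets that the group labels do not give. In tumor 1, normal thymus 1 and the first and the second resistant tumor the poly-A spike-in control rows had almost no signal (means of 2.01 to 2.95), and in the other 5 arrays they were bright (means of 141 to 237). Median signals were 23.6 to 25.8 in the arrays without spike-in signal and 13.9 to 17.8 in those with it. The 3′ to 5′ signal ratio of Actb, which climbs as RNA degrades, was 1.63 to 1.98 in the first set and 1.91 to 3.16 in the second. Between these sets 41.9% of all 20917 tested probe sets differed at an adjusted p under 0.05 in limma, in a model that also held the groups, and so did 9 of the 22 member probe sets. For the 10 genes each comparison with normal thymus is therefore also given within the arrays without and with spike-in signal, in brackets in that order, and a fit with the set as a block is given where it changes a call of a leading probe set. For the lists of other genes, counts from that fit stand beside the counts of calls. Xist itself had a signal of 17.4 to 38.9 in normal thymus, 332 to 578 in tumors and 274 to 544 in resistant tumors.

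In tumors against normal thymus, 1 of the 10 Polycomb genes rose (Bmi1) and 2 fell (Phc1 and Cbx7), all of them PRC1 subunits. None of the 5 PRC2 genes passed the test. Ezh1 and Eed had an unadjusted limma p of 0.0418 and 0.0339, but ranked only 5669 and 5448 by p among the 11671 genes. Of all 11671 genes tested, 42.4% were called here, 23.3% as higher and 19.1% as lower, so a count of 3 in 10 is no larger than the background. The median change of the 10 genes was -0.22 on the log2 scale, and that of all genes was 0.05. For 4 of the 10 genes the arrays of the groups did not overlap, against 55.3% of all genes.

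In resistant tumors against normal thymus only Phc1 was called, and it fell. The background in this comparison was 43.3% called, 23.1% higher and 20.2% lower. The median change of the 10 genes was -0.17, and that of all genes was 0.06. Arrays of the groups did not overlap for Phc1 and Ezh1, 2 of the 10 genes, against 54.6% of all genes. Both comparisons use the same 3 normal arrays.

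Resistant tumors and tumors overlapped in all 10 genes, and limma called none, where 0.36% of all genes were called and 10.4% did not overlap. The unadjusted p of all 10 was above 0.05. The lowest adjusted p in limma was 0.735, for Bmi1, and the changes ran from -0.51 to 0.34 on the log2 scale.

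**Figure D1:**
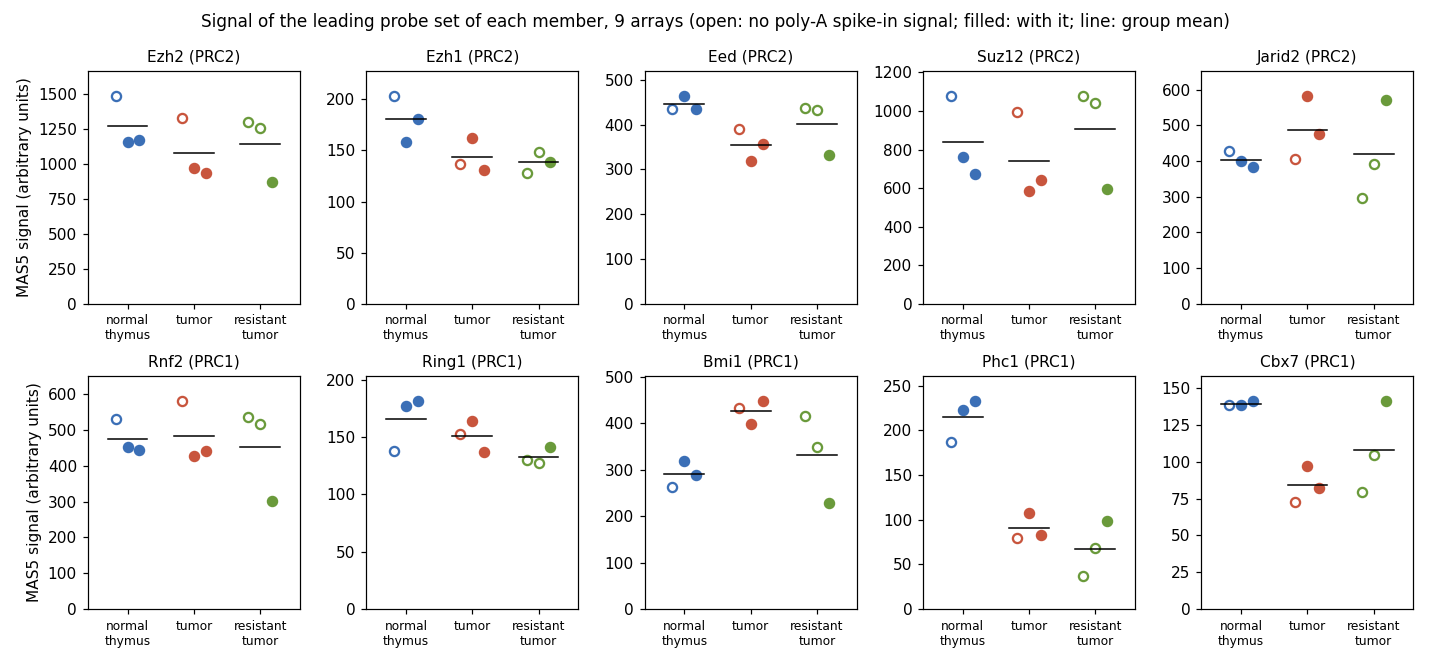
MAS5 signal in arbitrary units (vertical axis, linear, from 0) of the leading probe set of each gene on the 9 arrays by group, with open circles for arrays without spike-in signal, filled circles for arrays with it and a line at the group mean. The 3 normal arrays of Phc1 (187 to 233) lie above all 6 tumor arrays (36.9 to 108), whereas Ezh2, Suz12 and Rnf2 are higher in the open than in the filled circles of every group.

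Among the PRC2 genes, Ezh2, the main methyltransferase of proliferating cells, had signals of 1486, 1154 and 1173 in the 3 normal arrays, 1327, 973 and 931 in the tumors and 1299, 1254 and 867 in the resistant tumors. The groups overlapped, and in each group the arrays without spike-in signal were the highest. The change was -0.25 ± 0.19 (SE, 3 arrays in each group, limma adjusted p = 0.332) [-0.16, -0.29] in tumors and -0.17 ± 0.19 (adjusted p = 0.506) [-0.22, -0.42] in resistant tumors against normal thymus. The spike-in sets differed by 0.46 on the log2 scale (adjusted p = 0.000328), more than any group difference of this gene. With the set as a block the changes were -0.25 ± 0.07 (adjusted p = 0.0106) and -0.32 ± 0.07 (adjusted p = 0.00307), and both were then called. Resistant tumors differed from tumors by 0.08 (95% interval -0.35 to 0.50).

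Ezh1, the second methyltransferase of PRC2, which is known from resting cells, had signals of 203, 159 and 180 in normal thymus, 137, 162 and 131 in tumors and 128, 148 and 139 in resistant tumors. Resistant tumors lay wholly below normal thymus, and 1 tumor reached into the normal range. The change was -0.34 ± 0.14 (adjusted p = 0.0861) [-0.57, -0.22] in tumors and -0.38 ± 0.14 (adjusted p = 0.0555) [-0.56, -0.29] in resistant tumors. Neither passed the test. Both did once the fit held the spike-in set as a blocking term (adjusted p = 0.0444 and 0.0255). The other 3 Ezh1 probe sets stayed below the array median on all 9 arrays, with signals of 0.589 to 22.4, and were not tested.

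Eed, the subunit that binds the methyl mark and stimulates the enzyme, had signals of 436, 465 and 435 in normal thymus, 390, 319 and 357 in tumors and 437, 434 and 333 in resistant tumors. All 3 tumors lay below all 3 normal arrays, whereas resistant tumor 1 lay within the normal range and resistant tumor 2 just below it. The change in tumors was -0.33 ± 0.13 (adjusted p = 0.0727) [-0.16, -0.41], which was not called. In tumors and normal thymus, arrays of the same replicate number share a spike-in set. A fit with the replicate number as a block, which is thus not separate from that set, called Eed lower (adjusted p = 0.0485). The fit that blocked on the spike-in set did so too (adjusted p = 0.0167), as did a fit of these 2 groups alone (adjusted p = 0.0478). In resistant tumors the change was -0.16 ± 0.13 (adjusted p = 0.362) [-0.00, -0.43]. A second Eed probe set reached the array median on 1 array only, with signals of 11.3 to 27.6, and was not tested.

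Suz12 encodes the scaffold on which PRC2 is built. Its leading probe set had signals of 1079, 764 and 674 in normal thymus, 995, 586 and 644 in tumors and 1078, 1040 and 598 in resistant tumors. The groups overlapped fully, and the 4 arrays without spike-in signal were the 4 highest. The changes were -0.19 ± 0.28 (adjusted p = 0.630) [-0.12, -0.22] in tumors and 0.09 ± 0.28 (adjusted p = 0.816) [-0.03, -0.26] in resistant tumors. The sign of the second differs from the values within each spike-in set, and resistant tumors hold 2 of the 4 arrays without spike-in signal. With the set as a block it was -0.14 (adjusted p = 0.175).

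Suz12 has 6 probe sets on the array, more than any other member, and all 6 passed the filter. None was called in any comparison. In 5 of the 6, signals were higher in the arrays without spike-in signal, by 0.67 to 2.50 on the log2 scale at adjusted p under 0.05. The largest of these differences was that of probe set 1420020_at, with signals of 47.3 to 58.8 in the arrays without spike-in signal and 7.96 to 9.99 in the other 5. In probe set 1420022_s_at the difference was 0.10 (adjusted p = 0.731).

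**Figure D2:**
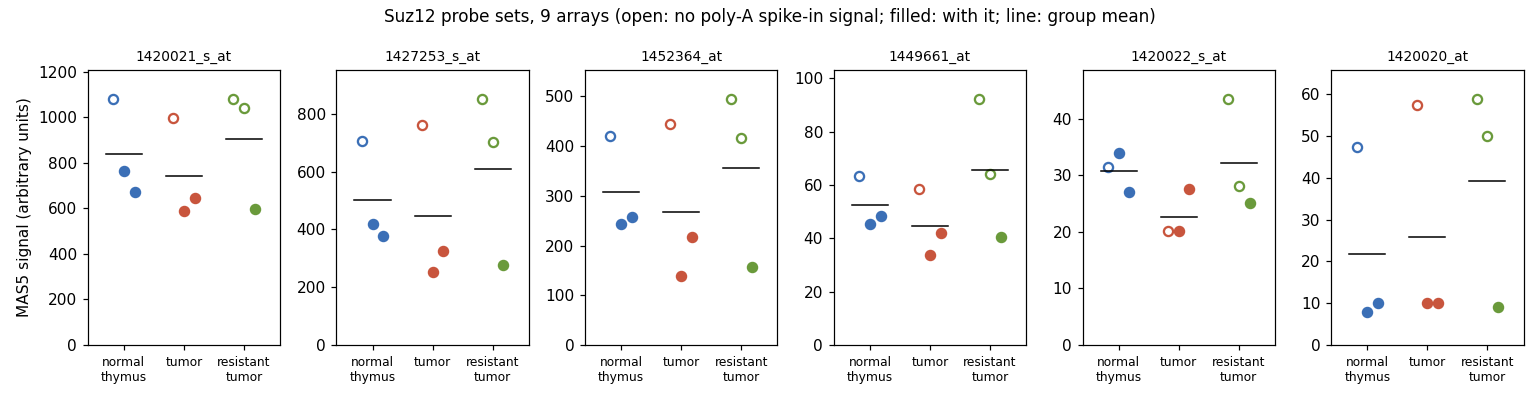
MAS5 signal in arbitrary units (vertical axis, linear, from 0, with its own scale in each panel) of the 6 Suz12 probe sets on the 9 arrays, with open circles for arrays without spike-in signal, filled circles for arrays with it and a line at the group mean. In every panel but that of 1420022_s_at the 4 open circles lie above the 5 filled ones.

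Jarid2, which recruits PRC2 and tunes its activity, had signals of 426, 400 and 384 in normal thymus, 405, 583 and 475 in tumors and 297, 392 and 570 in resistant tumors with its leading probe set. The groups overlapped, and the resistant tumors spread from the lowest of the 9 values to the second highest. The changes were 0.26 ± 0.22 (adjusted p = 0.382) [-0.07, 0.43] in tumors and 0.01 ± 0.22 (adjusted p = 0.981) [-0.32, 0.54] in resistant tumors. The sign differed between the spike-in sets in both.

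The 3 Jarid2 probe sets did not give the same picture. Probe set 1450710_at had signals of 137, 136 and 142 in normal thymus, 109, 103 and 129 in tumors and 99.2, 99.6 and 82.0 in resistant tumors. The 3 groups did not overlap: resistant tumors were lowest and normal thymus highest. In the fit of all probe sets it fell in resistant tumors against normal thymus by 0.57 ± 0.14 (limma adjusted p = 0.0134), and the sign was shared by the arrays without and with spike-in signal. In tumors it differed from normal thymus by -0.29 (adjusted p = 0.158), and resistant tumors differed from tumors by -0.28 (adjusted p = 0.884). Probe set 1422697_s_at was not called in any comparison (-0.25 and adjusted p = 0.192 in resistant tumors against normal thymus), but the fit that blocked on the spike-in set called it lower there (-0.31, adjusted p = 0.0307). For the mean over the Jarid2 probe sets the difference was -0.03 in tumors and -0.27 in resistant tumors (adjusted p = 0.0689).

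Over all 22 member probe sets and all 3 comparisons the fit of single probe sets gave 4 calls: Phc1 in both comparisons with normal thymus, the leading probe set of Cbx7 in tumors, and this Jarid2 probe set in resistant tumors. The background of that fit was 35.9% in tumors against normal thymus, 36.7% in resistant tumors against normal thymus and 0.215% in resistant tumors against tumors.

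Turning to PRC1, Rnf2 encodes RING1B, the main ubiquitin ligase of the complex. It had signals of 533, 453 and 443 in normal thymus, 582, 429 and 441 in tumors and 538, 516 and 302 in resistant tumors. The groups overlapped, and the 4 arrays without spike-in signal were again the 4 highest, with a difference between the sets of 0.49 (adjusted p = 0.00283). The changes were 0.01 ± 0.22 (adjusted p = 0.970) [0.13, -0.04] in tumors and -0.12 ± 0.22 (adjusted p = 0.697) [-0.02, -0.57] in resistant tumors. Of the other 4 Rnf2 probe sets, 2 passed the filter with no call in any comparison, and 2 stayed below the array median on all 9 arrays, with signals of 0.677 to 10.7.

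Ring1, which encodes the related ligase RING1A, had signals of 138, 177 and 182 in normal thymus, 153, 164 and 137 in tumors and 130, 128 and 141 in resistant tumors. The normal array without spike-in signal was the one that overlapped with the resistant tumors. The change in resistant tumors was -0.31 ± 0.14 (adjusted p = 0.116) [-0.10, -0.35], and leaving out normal thymus 1 gave -0.43 and a call (adjusted p = 0.0355). In tumors it was -0.12 ± 0.14 (adjusted p = 0.533) [0.15, -0.26].

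Bmi1 encodes a PCGF subunit, the partner that activates the RING ligases, and represses the Cdkn2a locus in stem and progenitor cells. It had signals of 263, 320 and 289 in normal thymus, 433, 399 and 448 in tumors and 416, 349 and 227 in resistant tumors. All 3 tumors were above all 3 normal arrays, and the resistant tumors ran from below the normal range into the tumor range. Bmi1 rose in tumors by 0.56 ± 0.20 on the log2 scale, 1.47-fold (limma adjusted p = 0.0468) [0.72, 0.48]. This call stands at the threshold. It was lost without any 1 of the 6 arrays of these groups (adjusted p = 0.0684 to 0.129), and with quantile normalization (adjusted p = 0.0528), equal array medians (0.155), no filter (0.0762), no intensity trend (0.0704) or the mean over probe sets (0.118).

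The second Bmi1 probe set, 1448733_at, had signals of 162, 152 and 139 in normal thymus and 263, 222 and 164 in tumors, again without overlap. Its change of 0.50 ± 0.32 was not called (adjusted p = 0.272). In resistant tumors against normal thymus the leading probe set differed by 0.15 ± 0.20 (adjusted p = 0.582) [0.54, -0.42], with opposite signs in the spike-in sets. Without resistant tumor 3, the array with the lowest Bmi1 signal and an Actb ratio of 2.64, the change was 0.40 and was called (adjusted p = 0.0415). Resistant tumors differed from tumors by -0.41 ± 0.20 (adjusted p = 0.735, 95% interval -0.86 to 0.04) [-0.18, -0.89].

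Phc1, a polyhomeotic subunit whose SAM domain lets PRC1 complexes polymerise, changed most of the 10 genes. It has 1 probe set, with signals of 187, 223 and 233 in normal thymus, 79.9, 108 and 83.2 in tumors and 36.9, 67.8 and 98.1 in resistant tumors. The normal arrays were the 3 highest of the 9, and both tumor groups lay wholly below them. Phc1 fell in tumors by 1.25 ± 0.31 on the log2 scale, 2.38-fold (limma adjusted p = 0.00874) [-1.23, -1.27]. It fell in resistant tumors by 1.77 ± 0.31, 3.41-fold (adjusted p = 0.00142) [-1.90, -1.22]. With equal array medians the change in tumors was -1.07 and was not called (adjusted p = 0.169). Resistant tumors differed from tumors by -0.51 ± 0.31 (adjusted p = 0.794, 95% interval -1.20 to 0.17) [-0.67, 0.05], with overlapping arrays.

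Cbx7, a chromodomain subunit through which PRC1 reads the methyl mark of PRC2, had signals of 138, 138 and 141 in normal thymus, 72.6, 97.1 and 82.5 in tumors and 79.7, 104 and 141 in resistant tumors with its leading probe set. The normal arrays were nearly equal and all tumors lay below them, while the resistant tumors reached up to the normal level. Cbx7 fell in tumors by 0.74 ± 0.21, 1.67-fold (limma adjusted p = 0.0163) [-0.93, -0.64]. The call was lost without normal thymus 3 (adjusted p = 0.0520) and with equal array medians (-0.55, adjusted p = 0.420). In resistant tumors the change was -0.40 ± 0.21 (adjusted p = 0.146) [-0.60, 0.01], and without resistant tumor 3 it was -0.61 and was called (adjusted p = 0.0232).

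The direction for Cbx7 rests on this probe set. Probe set 1449713_at had signals of 25.1, 21.5 and 19.2 in normal thymus, 27.9, 32.0 and 22.9 in tumors and 31.7, 37.2 and 32.8 in resistant tumors, which lay wholly above normal thymus. It differed by 0.63 ± 0.24 in resistant tumors (adjusted p = 0.0635) and by 0.33 ± 0.24 in tumors (adjusted p = 0.328), and neither was called. A fit that blocked on the spike-in set called the first higher (adjusted p = 0.0393). Probe set 1420039_s_at, with signals of 1.82 to 52.4, was lower in the arrays without spike-in signal by 2.24 on the log2 scale (adjusted p = 0.00136). With the set as a block it too was called higher in resistant tumors, by 2.15 ± 0.46 (adjusted p = 0.00287). The mean over the 3 Cbx7 probe sets reversed the sign in tumors (0.12, adjusted p = 0.829).

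In the fit that blocked on the spike-in set, 6 of the 10 genes were called in tumors against normal thymus, where 58.7% of all genes were called: Ezh2, Ezh1, Eed, Phc1 and Cbx7 lower and Bmi1 higher. In resistant tumors against normal thymus 3 were called lower (Ezh2, Ezh1 and Phc1), where 58.8% of all genes were called. In resistant tumors against tumors none was called, where 1.23% of all genes were.

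**Figure D3:**
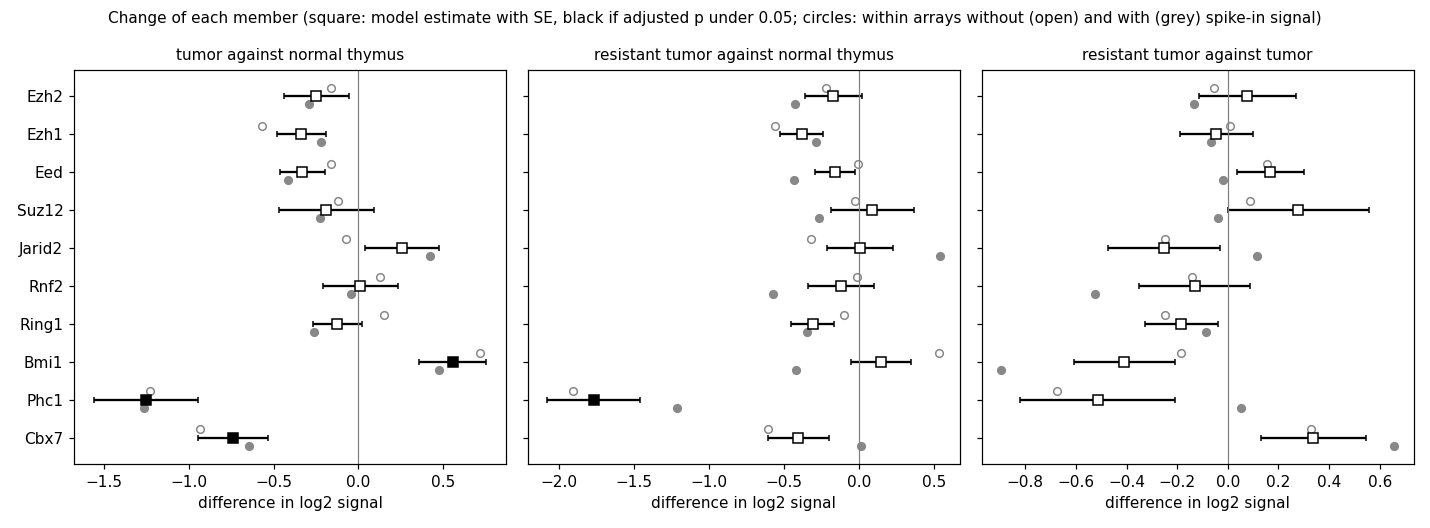
Difference in log2 signal (horizontal axis, with its own scale in each panel) of each gene in the 3 comparisons, with squares for the limma estimate and bars for its SE, black where the adjusted p was under 0.05. Open and grey circles are the differences within arrays without and with spike-in signal, with no test. Phc1 lies furthest to the left in both comparisons with normal thymus, and for Bmi1 and Cbx7 in resistant tumors the circles lie apart.

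The genes whose log2 signal followed the catalytic members most closely over the 9 arrays are given by Pearson's r as a description, without a test, since the arrays share groups and spike-in sets. Ezh2 was followed most closely by Pdcd1lg2 (r = 0.986) and Zfp729b (r = 0.986), which differed between the spike-in sets by 1.16 and 0.41. For Rnf2 the closest were Tyk2 (r = 0.969) and Ccdc174 (r = 0.952), for Ezh1 they were Macroh2a1 (r = 0.951) and Tln1 (r = 0.934), and for Ring1 they were Stxbp4 (r = 0.955) and Rnf25 (r = 0.920). Among the 10 members Ezh2 and Suz12 had r = 0.903 and Bmi1 and Cbx7 had r = -0.912.

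The other genes of the Polycomb system were read from lists by role. Over all genes 42.4% were called in tumors and 43.3% in resistant tumors against normal thymus. In the fit that blocked on the spike-in set these shares were 58.7% and 58.8%. The counts of each list below stand beside these backgrounds. In the list of PRC2 accessory subunits, 2 of 7 tested genes rose and 2 fell in tumors, and 2 rose and 1 fell in resistant tumors, with medians of 0.17 and 0.20 against 0.05 and 0.06 over all genes. In the fit that blocked on the spike-in set, 3 were higher and 2 lower in tumors and 4 higher and 1 lower in resistant tumors. Epop, an accessory subunit that links PRC2 to elongin, had signals of 8.57, 9.90 and 17.4 in normal thymus, 59.5, 110 and 92.6 in tumors and 58.0, 101 and 161 in resistant tumors. Every tumor array was above every normal array, of which 1 reached its array median, so the size of the difference is uncertain. Epop rose by 2.90 ± 0.41 (limma adjusted p = 0.000426) and 3.11 ± 0.41 (adjusted p = 0.000287).

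Mtf2, a Polycomb-like subunit that brings PRC2 to CpG islands, had signals of 692, 581 and 559 in normal thymus, 1613, 1114 and 1194 in tumors and 1712, 1394 and 1087 in resistant tumors. Again every tumor array was above every normal array. Mtf2 rose by 1.08 ± 0.19 (adjusted p = 0.00138) and 1.18 ± 0.19 (adjusted p = 0.000868), and 4 of its 6 probe sets were called higher in each comparison. Another one had a change of -0.82 in tumors, which was not called. The related Phf1 moved the other way, from 169, 129 and 173 in normal thymus to 85.5, 79.9 and 74.99 in tumors and 87.8, 107 and 75.4 in resistant tumors. Phf1 fell by 0.96 ± 0.18 (adjusted p = 0.00187) and 0.80 ± 0.18 (adjusted p = 0.00486). The third Polycomb-like gene, Phf19, fell by 0.75 ± 0.26 in tumors (adjusted p = 0.0380). The leading probe sets of the histone-binding subunit genes Rbbp4 and Rbbp7, and of Aebp2, were not called in either comparison, and Ezhip was below the filter. In the fit of single probe sets, 1 of 4 Rbbp4 probe sets was called higher in tumors. For Aebp2 1 of 5 was called higher in each comparison. The blocked fit called Rbbp7 higher in both (adjusted p = 0.0451 and 0.0246) and Aebp2 higher in resistant tumors (adjusted p = 0.0408).

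For 7 other canonical PRC1 subunits the background was again 42.4% and 43.3% called. Of these 7, 3 rose and 1 fell in tumors and 2 rose and 1 fell in resistant tumors. These counts were 3 and 2, and 3 and 1, in the fit that blocked on the spike-in set, with Phc3 added as lower in tumors (adjusted p = 0.0241) and Phc2 as higher in resistant tumors (adjusted p = 0.0406). Pcgf2, the closest relative of Bmi1, lay below the array median on all 3 normal arrays (10.4 to 12.2) and had signals of 36.8, 34.5 and 32.9 in tumors and 16.9, 20.5 and 28.9 in resistant tumors. The fitted differences of Pcgf2 were 1.63 ± 0.30 in tumors (adjusted p = 0.00181) and 0.94 ± 0.30 in resistant tumors (adjusted p = 0.0276). Against the array median as a floor it was at least 1.75-fold higher in tumors. No such bound is given for resistant tumors, since the first and the second lay below their own array medians of 24.1 and 23.6. The second call was lost with quantile normalization (adjusted p = 0.140). Cbx8, another chromodomain subunit, fell by 0.74 ± 0.25 (adjusted p = 0.0364) and 0.90 ± 0.25 (adjusted p = 0.0160). Cbx6 rose by 0.54 ± 0.16 (adjusted p = 0.0226) and 0.51 ± 0.16 (adjusted p = 0.0281), and the polyhomeotic gene Phc2 rose in tumors by 0.37 ± 0.09 (adjusted p = 0.0107).

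The variant PRC1 complexes lack CBX subunits and do not read the methyl mark. Of 14 tested genes, 5 rose and 1 fell in tumors and 6 rose and 1 fell in resistant tumors, with medians of 0.49 and 0.42. Over all genes 42.4% and 43.3% were called (58.7% and 58.8% in the blocked fit), with medians of 0.05 and 0.06. The blocked fit gave 8 higher and 2 lower in tumors and 8 higher and 3 lower in resistant tumors, and added Yaf2 and Bcorl1 as higher and Pcgf5 as lower in both. Auts2, a subunit that links a variant PRC1 to gene activation, had signals of 28.9, 27.1 and 24.9 in normal thymus, 92.7, 72.2 and 92.9 in tumors and 84.8, 112 and 104 in resistant tumors. The groups of tumors lay wholly above normal thymus. Auts2 rose by 1.66 ± 0.18 (adjusted p = 8.35e-05) and 1.89 ± 0.18 (adjusted p = 3.96e-05), and all 4 of its probe sets were called higher.

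E2f6, a repressor of the E2F family in variant PRC1, rose by 1.14 ± 0.17 (adjusted p = 0.000575) and 1.29 ± 0.17 (adjusted p = 0.000284). Pcgf6, its partner in that complex, rose by 0.88 ± 0.15 (adjusted p = 0.00111) and 0.89 ± 0.15 (adjusted p = 0.00107). All 3 Pcgf6 probe sets were higher, and 1 was called in each comparison. Bcor, an X-linked corepressor of the complex that contains PCGF1, fell by 0.96 ± 0.28 (adjusted p = 0.0186) and 0.76 ± 0.28 (adjusted p = 0.0476), from 157 to 192 in normal thymus to 74.1 to 115 in tumors and 65.9 to 141 in resistant tumors. Pcgf3 and Wdr5 were also called higher in both comparisons, and L3mbtl2 in resistant tumors. For Pcgf3 the 2 probe sets differed in sign.

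Of 7 genes whose enzymes remove the Polycomb marks or belong to the deubiquitinase complex, none rose, 1 fell in tumors and 2 fell in resistant tumors. Among all genes 23.3% and 23.1% were called higher and 19.1% and 20.2% lower. In the blocked fit Mysm1 was lower in both as well (adjusted p = 0.0219 and 0.0343) and Asxl1 higher in resistant tumors (adjusted p = 0.00420), which made 2 lower in tumors, and 3 lower and 1 higher in resistant tumors. Kdm6a, the X-linked demethylase of H3K27, had signals of 326, 278 and 272 in normal thymus, 179, 138 and 134 in tumors and 180, 134 and 134 in resistant tumors. No tumor array reached the normal range. Kdm6a fell by 0.97 ± 0.17 (adjusted p = 0.00147) and 0.98 ± 0.17 (adjusted p = 0.00140), with all 3 probe sets lower. Kdm6b, the other H3K27 demethylase, fell in resistant tumors by 0.50 ± 0.16 (adjusted p = 0.0304). In tumors its leading probe set was not called (-0.28, adjusted p = 0.183), but all 3 of its probe sets were lower and 1 was called.

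Trithorax and COMPASS proteins methylate another lysine of histone H3 and oppose Polycomb silencing. Of 10 tested genes, 2 rose and 1 fell in tumors and 1 rose and 2 fell in resistant tumors, with medians of 0.09 and 0.02. The shares of all genes called were 42.4% and 43.3%. The blocked fit gave 3 higher and 2 lower in tumors and 4 higher and 2 lower in resistant tumors. Kmt2a, the MLL gene, rose by 0.59 ± 0.12 (adjusted p = 0.00374) and 0.39 ± 0.12 (adjusted p = 0.0293). Men1, its partner, rose in tumors by 0.48 ± 0.11 (adjusted p = 0.00732), and the blocked fit called it higher in resistant tumors too (adjusted p = 0.00953). Kmt2c fell by 0.35 ± 0.09 (adjusted p = 0.0111) and 0.47 ± 0.09 (adjusted p = 0.00238). Of its 4 probe sets 1 was called in each comparison, and another changed by 0.27 in resistant tumors. Setd1b fell in resistant tumors by 0.62 ± 0.12 (adjusted p = 0.00285), with a call in tumors in the blocked fit (adjusted p = 0.0211).

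Of 19 textbook Polycomb targets on the array, 16 stayed below the filter, Cdkn2a, Cdkn2b, Hoxa9, Gata4 and Pax6 among them, so only 3 were tested. Lhx2, a homeobox gene, had signals of 7.56 to 14.5 in normal thymus, below the array median, and of 88.5 to 145 in tumors and 139 to 207 in resistant tumors. It was at least 5.55-fold higher in tumors (adjusted p = 1.74e-05) and at least 8.48-fold higher in resistant tumors (adjusted p = 6.94e-06). Meis1, a cofactor of HOX proteins, went from 35.4 to 38.6 in normal thymus to below the array median on all 6 tumor arrays (0.271 to 3.93). It was at least 2.13-fold lower in tumors (adjusted p = 0.00406) and at least 1.79-fold lower in resistant tumors (adjusted p = 0.00436). Hoxa5 was not called in either comparison. In tumors it differed by -1.18 without overlap (adjusted p = 0.0539), and it was called lower there in the blocked fit (adjusted p = 0.00673) and with quantile normalization (adjusted p = 0.0343).

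Of 11 cofactors of Xist silencing, 1 was called in the fit without a block, against 42.4% and 43.3% of all genes. That was Yy1, which tethers Xist to chromatin. It fell by 0.33 ± 0.09 in tumors (adjusted p = 0.0148) and 0.36 ± 0.09 in resistant tumors (adjusted p = 0.00957), but its 4 probe sets differed in sign, with changes of -0.53 to 0.15 in tumors. The fit that blocked on the spike-in set gave 2 higher and 2 lower in tumors and 1 higher and 2 lower in resistant tumors. It added Ciz1 as higher (adjusted p = 0.00175 and 0.00723) and Lbr as lower (adjusted p = 0.0113 and 0.00403) in both, and Spen as higher in tumors (adjusted p = 0.0321). In the proliferation list, 5 of 15 genes rose and 1 fell in tumors and 6 rose and 1 fell in resistant tumors, with medians of 0.03 and 0.10. The background of all genes was again 42.4% and 43.3% called. The blocked fit gave 6 higher and 1 lower in each. Tk1, the thymidine kinase of S phase, rose by 1.22 ± 0.14 (adjusted p = 0.000110) and 0.90 ± 0.14 (adjusted p = 0.000688), and E2f1 rose by 0.90 ± 0.22 (adjusted p = 0.00915) and 0.63 ± 0.22 (adjusted p = 0.0430). In the fit of single probe sets neither of the 2 E2f1 probe sets was called in resistant tumors. Mcm2, a subunit of the replicative helicase, rose by 0.65 ± 0.15 (adjusted p = 0.00599) and 0.70 ± 0.15 (adjusted p = 0.00429). Mcm6, another helicase subunit, rose by 0.60 ± 0.10 (adjusted p = 0.00103) and 0.68 ± 0.10 (adjusted p = 0.000520). E2f2 fell by 1.39 ± 0.21 (adjusted p = 0.000655) and 1.26 ± 0.21 (adjusted p = 0.00113). The proliferation marker Mki67 had signals of 1952 to 2364, 1985 to 2281 and 1966 to 2132 in normal thymus, tumors and resistant tumors and was not called.

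No gene of any of these lists was called in resistant tumors against tumors, where only 0.36% of all genes were called. The called list genes, 27 in tumors and 28 in resistant tumors against normal thymus, kept their sign with quantile normalization, equal array medians and an added offset. With equal array medians 9 and 9 of them were still called.

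**Figure D4:**
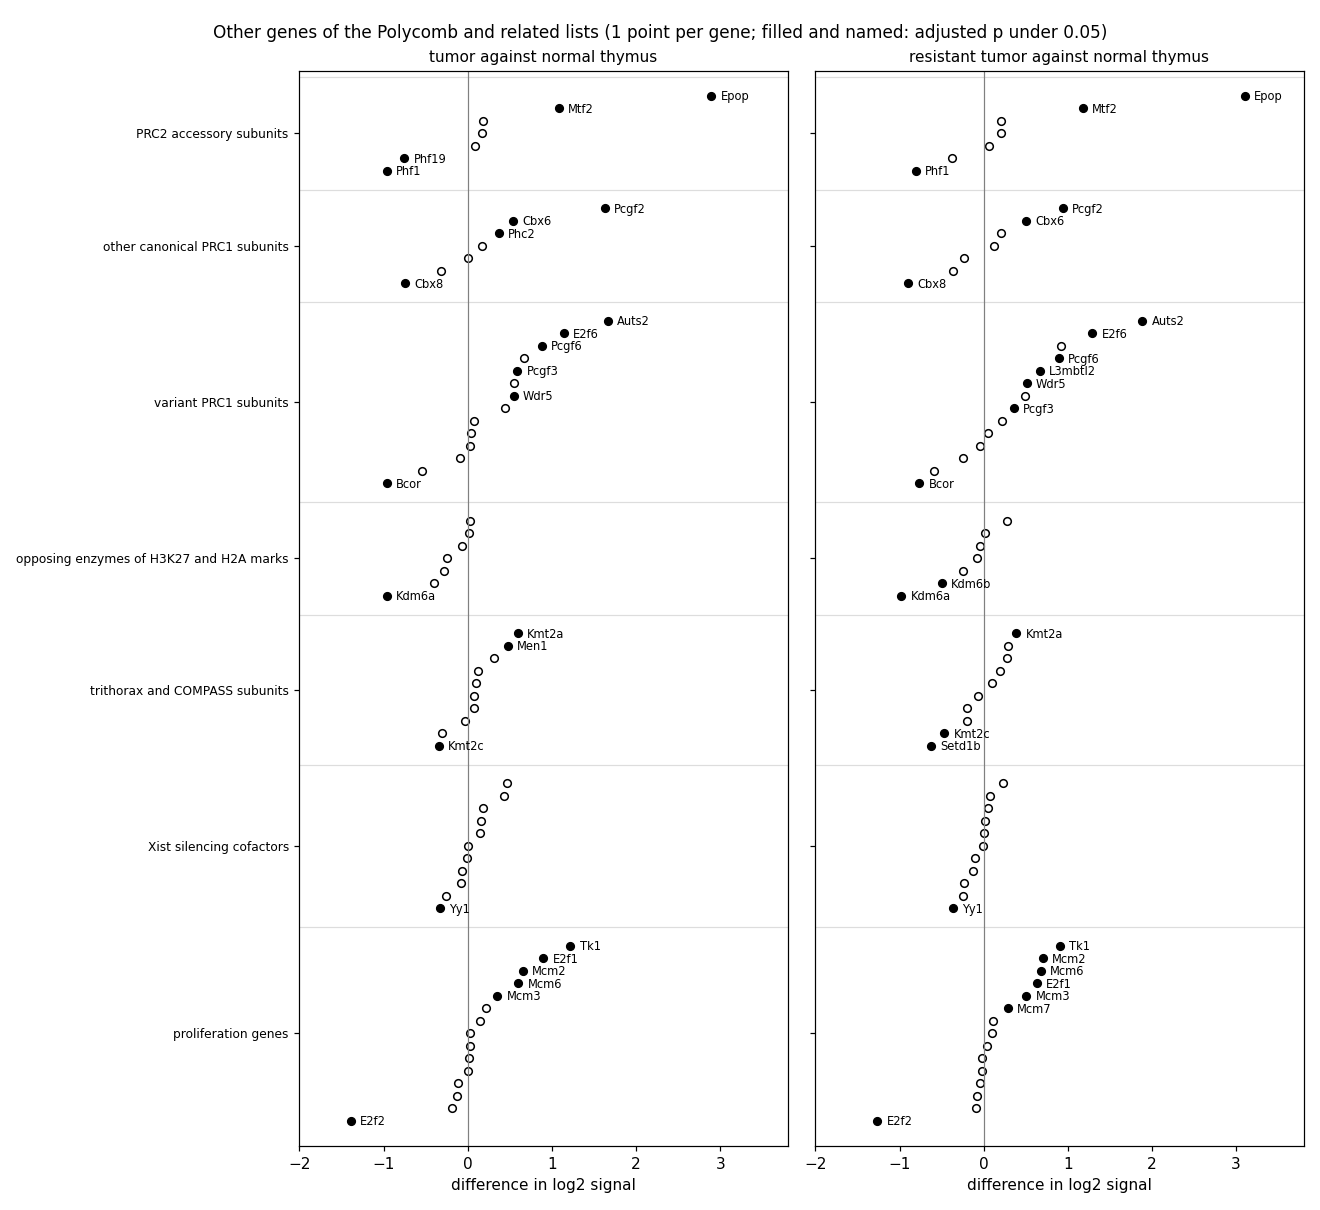
Difference in log2 signal against normal thymus (horizontal axis) for the tested genes of 7 lists, 1 point per gene in order of change within its list, in tumors (left) and resistant tumors (right). Filled, named points had an adjusted p under 0.05 in limma. Points are fitted differences, also for Pcgf2 and Epop, whose normal signals lay below the array median on 3 and 2 arrays. Auts2 (1.66 and 1.89) stands at the top of the variant PRC1 list, and E2f2 (-1.39 and -1.26) lies furthest to the left in both panels.

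Markers of the cell types that these tissues can hold differed between the groups as well. The summed signal of 7 markers of double-positive thymocytes was 15372 to 16911 in normal thymus, 5276 to 5844 in tumors and 4796 to 6365 in resistant tumors, with Cd8a and Cd8b1 below the array median on every tumor array. These 7 did not all fall alike. Of the 6 called lower in each comparison, Rag1 changed least, by 0.54 ± 0.19 and 0.57 ± 0.19 (limma adjusted p = 0.0429 and 0.0352). Dntt was not called in either (-0.18 and -0.11). The summed signal of 5 T lineage markers was 9472 to 10546, 8439 to 9892 and 7387 to 9450, with Cd2 below the median in both kinds of tumor. That of 8 markers of thymic epithelium was 5316 to 5670, 77.4 to 326 and 91.2 to 148, with 5 of the 8 below the median on every array of each tumor group.

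Markers of 4 B cell genes summed to 184 to 207, 15.0 to 68.1 and 33.9 to 63.9 in the same order, those of 5 dendritic cell genes to 131 to 175, 39.5 to 88.7 and 58.9 to 87.5, and those of 2 erythroid genes to 61.6 to 88.4, 10.95 to 22.6 and 18.0 to 25.3. All 4 B cell markers and 4 of the 5 dendritic cell markers lay below the array median on every array of both tumor groups. So did the erythroid marker Hba-a1 on every array of each group. The fibroblast and endothelial sums were higher in the tumors, but not every marker was. The 5 fibroblast markers summed to 989 to 1086, 2146 to 5070 and 2558 to 6193, and the 4 endothelial markers to 287 to 304, 382 to 565 and 426 to 728. Col1a1, Col1a2 and Col3a1 rose in both comparisons, whereas Dcn fell by 1.28 ± 0.44 in resistant tumors (adjusted p = 0.0401) and differed in tumors by -1.14 ± 0.44 without overlap (adjusted p = 0.0635). Cdh5, Egfl7 and Kdr rose in both, whereas Pecam1 fell by 0.89 ± 0.20 (adjusted p = 0.00541) and 0.58 ± 0.20 (adjusted p = 0.0408). The 5 macrophage markers overlapped between the groups, at 1251 to 1631, 851 to 1474 and 968 to 1805. The part of these cells in the changes of Phc1, Cbx7, Bmi1 and the listed genes was not tested, and in such bulk tissue fewer cells of a type and less RNA per cell cannot be told apart. Satb1, a chromatin organiser of thymocytes, had signals of 2930 to 3735 in normal thymus, 1086 to 1435 in tumors and 921 to 1006 in resistant tumors, without overlap between any of the groups.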

How the data were processed

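The deposited values are linear signal intensity, which the submitters' processing notes ascribe to MAS5. The sources used here give neither its version nor its scaling target. The trimmed mean was 100.03 in every array. Signals under 1 were raised to 1 before the log2 transform, and nothing else was normalized. Probe sets with a single symbol were kept where at least 3 of 9 arrays reached their own median, and the leading probe set stood for its gene. All 9 arrays entered 1 limma fit (version 3.58.1, R 4.3.3) of 3 group means with an intensity trend, run over 11671 genes and separately over 20917 probe sets. Tests were two-sided, with Benjamini-Hochberg adjustment over all genes or all probe sets, and an adjusted p under 0.05 was called. Where every array of a group was under its median, the fold is a bound against that median. The p-value beside such a bound tests the fitted difference. The model was tested on simulated data.

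The 10 genes, the lists and the markers were chosen with earlier results of these data known. The rule named every member, up to 4 called genes per list and comparison, the 2 genes most like each catalytic member, Xist and Satb1. Genes named as not called or as further calls, and single probe sets, were chosen after their values were seen.

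The column of tumor 1 lists its 64 control rows differently, so they were sorted by name to read the spike-ins. Deviations of same-numbered arrays from their group means correlated at 0.654, 0.371 and 0.411 in tumors and normal thymus. Each of these pairs shares a spike-in set, so pairing by replicate and the set cannot be told apart. In resistant tumors, replicate 2 correlated negatively (-0.337 against normal thymus and -0.301 against tumors), and there the spike-in sets differed. Plots were made in Python 3.11.15 with matplotlib 3.10.9.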

Additional observations from a re-analysis of the deposited data

How the results depend on the processing

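The alternatives were quantile normalization, equal array medians, an offset of 50, no filter, a filter at the 75th percentile, the mean over probe sets, no intensity trend, only the 2 groups compared, a replicate block, the spike-in set as a block, and each array left out. Of the 10 genes, 3 were called in tumors against normal thymus. This became 0 with equal medians, 1 with the mean over probe sets, 6 with the spike-in block and 1 to 2 with an array left out (1 without normal 3). It was 4 with the replicate block, in which Eed was added. In resistant tumors against normal thymus 1 was called, which became 2 with the mean over probe sets, 3 with the spike-in block and 1 to 3 with an array left out (2 without normal 1, 3 without resistant tumor 3). It stayed at 1 with the replicate block, which changed no other call of a member gene. In resistant tumors against tumors limma called 0 members under every alternative. The 4 calls of single probe sets became 1 with equal medians, 13 with the spike-in block, 6 with the replicate block and 2 to 8 with an array left out (2 without normal 3, 8 without resistant tumor 3). The share of all probe sets called in these settings is not given here. Over all genes the spike-in block raised the share called from 42.4% to 58.7% in tumors and from 43.3% to 58.8% in resistant tumors against normal thymus. The change of Cbx7 in tumors reversed to 0.12 with the mean over probe sets, in which dim probe sets of opposite sign enter. Over all genes, equal medians moved the median change in tumors against normal thymus from 0.05 to 0.24 and in resistant tumors against tumors from -0.02 to -0.26. They left 2287 of 4943 calls in tumors and 2034 of 5049 in resistant tumors against normal thymus. The 42 calls between the tumor groups became 18 with equal medians, 22 without a filter, 23 with the 75th percentile, 27 with the mean over probe sets, 8 with only these groups, 92 with the replicate block, 143 with the spike-in block and 8 to 70 with an array left out (8 without tumor 2, 10 without tumor 3, 70 without resistant tumor 3). The settings for single probe sets other than the main one were added after seeing the data. The number of arrays and the 6 residual degrees of freedom limit the precision, and no detection calls were used.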
